A study of Mus musculus with 9 samples.

Results

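Rap1 regulators and effectors were described across lenses with graded loss of the small Maf transcription factors. The set holds 10 genes given by symbol: the Rap1 proteins *Rap1a* and *Rap1b*, the exchange factors *Rapgef1* and *Rapgef2*, the GTPase-activating proteins *Sipa1*, *Sipa1l1*, *Sipa1l2* and *Sipa1l3*, and the effectors *Radil* and *Rasip1*. Of these, 9 had 1 entry each among the 15820 entries with a gene symbol (22013 entries in all), and *Sipa1l2* is not analysed here. The set was chosen by the measured values of 2 of its genes, since *Sipa1l1* was lower and *Radil* was higher in double KO than in control lenses. Those differences are therefore given as a description, with no test. RNA came from whole lenses of mouse embryos at stage E16.5. There were 3 libraries per genotype, each pooled from 8 lenses. Control lenses were *Mafg*+/-:*Mafk*+/-, compound KO lenses were *Mafg*-/-:*Mafk*+/-, and double KO lenses were *Mafg*-/-:*Mafk*-/-. All groups, the controls included, carried germline KO alleles of both genes, so no wild-type lens is part of the comparison. The animals were on an ICR background, with KO alleles present in every cell and not in the lens alone.

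Rap1 is a small GTPase that works as a switch. Guanine nucleotide exchange factors (GEFs) load it with GTP and turn it on, GTPase-activating proteins (GAPs) speed the hydrolysis of that GTP and turn it off, and effectors are the proteins that bind the GTP-loaded form and act on integrins, cadherin junctions and the actin cytoskeleton. In the mouse lens, Rap1 is known for its part in the adhesion and shape of epithelial cells. Mafg and Mafk are small Maf proteins without a transactivation domain, and they bind DNA with a bZIP partner at Maf recognition elements and antioxidant response elements.

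Values are the authors' normalized CPM, that is, read counts relative to the library total, scaled by 1 composition factor per library and given to 1 decimal. Since sequencing depth is unknown, the spread between the 3 libraries of a group stands as the only error. Groups were compared by limma on log2(value + 1), a scale that draws the fold change of low genes towards 0, and fold changes below are on this scale unless a ratio of means is named. Exact permutation of 3 against 3 libraries cannot give a two-sided p below 0.1. Nothing states that the libraries of a group came from separate litters, so a p-value measures the spread between these libraries only. *Mafg* was at 112.9 to 134.5 in control, 10.1 to 24.1 in compound KO and 21.2 to 26.2 in double KO libraries, and *Mafk* was at 5.2 to 6.3, 4.3 to 5.3 and 0.0 to 0.6. Compound KO replicate 1 stood apart. Its summed level of 9 lens fiber markers was 6453, against 14960 to 20763 in the other 8 libraries, and its mesenchyme markers summed to 2250, against 23.0 to 232.

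*Sipa1l1*, also named SPAR, is a Rap GAP known from the postsynaptic density of neurons, where it acts on actin and spine shape. It lay at chr12:82216094-82498560 on the plus strand of GRCm39 and had 20 coding exons. *Sipa1l1* was at 22.8, 33.7 and 60.4 normalized CPM in the control libraries, at 55.2, 31.0 and 50.4 in the compound KO libraries, and at 3.0, 4.1 and 2.3 in the double KO libraries. The control and compound KO libraries overlapped, and the 3 double KO libraries lay below all 6 of the others. The mean was 39.0 ± 19.3 in control, 45.5 ± 12.8 in compound KO and 3.13 ± 0.907 in double KO lenses (SD, n = 3 each). The control mean was 12.4 times the double KO mean, and the compound KO mean was 14.5 times it. The log2 fold change was −3.19 (standard error 0.37) from control to double KO and −3.47 (standard error 0.28) from compound KO to double KO. Both rest on the double KO libraries by which the gene was selected. By RT-qPCR, the paper also reported reduced *Sipa1l1* in double KO lenses.

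Between compound KO and control lenses, the difference of *Sipa1l1* was smaller than the spread between libraries. The log2 fold change was 0.29 (standard error 0.40, 95% interval −0.70 to 1.28, limma adjusted p = 0.728). The values cannot tell apart changes inside that interval. These control libraries are shared with the comparison that selected the gene. The paper gave priority to candidates altered in double KO rather than compound KO lenses, and *Sipa1l1* was among its candidates. The compound KO values are therefore not fully independent of the choice either. In the compound KO group, mesenchyme markers ran from 69.1 to 2250 while *Sipa1l1* ran from 31.0 to 55.2, and the part of those cells was not tested.

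*Radil* encodes a Rap1 effector that joins Rasip1 in adhesion of endothelial cells and is needed for migration of neural crest cells in fish. It lay at chr5:142469552-142536853 on the minus strand and had 14 coding exons. *Radil* was at 1.6, 1.5 and 1.8 normalized CPM in the control libraries, at 10.8, 6.3 and 31.2 in the compound KO libraries, and at 34.5, 31.0 and 43.6 in the double KO libraries. The control libraries were the lowest 3 of all 9. Compound KO replicates 1 and 2 lay between the control and double KO libraries, and compound KO replicate 3 lay within the double KO range. The mean was 1.63 ± 0.153 in control, 16.1 ± 13.3 in compound KO and 36.4 ± 6.50 in double KO lenses (SD, n = 3 each). The double KO mean was 22.3 times the control mean, and the fitted difference was 3.81 log2 units (standard error 0.15), again as a description of the values that selected the gene.

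That selection rested on double KO against control values, and the control libraries are compared again here. Earlier results of these data were also known when the set was chosen. The p-value below is therefore not independent of the choice. *Radil* was higher in 3 of 3 compound KO libraries than in every control library, and the ratio of means was 9.86. The log2 fold change was 2.42 (standard error 0.54, 95% interval 1.07 to 3.76). Its unadjusted p was 0.00485 in limma's fit, and its adjusted p over 14348 genes was 0.481, which did not pass the threshold. Leaving out single libraries gave values from 1.82 to 2.89, and the smallest adjusted p was 0.252 (limma, without compound KO replicate 3). From compound KO to double KO the log2 fold change was 1.40 (standard error 0.55), with overlap through compound KO replicate 3, and it ran from 0.92 to 2.00 (the latter without that library) when single libraries were left out. In bulk lenses, more cells that express *Radil* and more *Radil* RNA per cell cannot be told apart. Markers of other cells also differed between the groups. Muscle markers (8 of 8 measured) summed to 2.50 to 4.30 in control, 18.4 to 292 in compound KO and 24.1 to 74.2 in double KO libraries. Erythroid markers (8 of 9 measured) summed to 1171 to 1640, 1426 to 2839 and 2340 to 3879, and neither list had a gene at 0 in every library. Compound KO replicate 3, highest in *Radil*, had the lowest sums of mesenchyme (69.1), muscle (18.4) and retina (102) markers in its group. It had the highest sums of erythroid (2839), lens fiber (16089) and lens epithelium (2327) markers there. *Cryab* alone gave 1665.1 of that epithelium sum. *Foxe3*, *Cdh1* and *Cryab* were highest in replicate 3 of the group. *Pax6*, *Six3* and *Meis1* were lowest there, and *Gja1* lay between. The part of these cells in the values of *Radil* was not tested.

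*Papolb* lies within *Radil* on the same strand, and reads on it could be counted for either gene. *Papolb* was at 0.2 to 0.5 in control, 0.6 to 1.6 in compound KO and 0.9 to 2.2 in double KO libraries. *Ap5z1* and *Wipi2* are the nearest genes with an entry under their current symbol on either side of *Radil*, and *Wipi2* lies at a gap of 76.6 kb. Genes without an entry, or with one under an older symbol, that may lie between were not looked at. *Ap5z1*, at a gap of 4.46 kb, was at 6.0 to 8.5 in control, 6.5 to 7.9 in compound KO and 5.9 to 7.5 in double KO libraries, and *Wipi2* differed by −0.12 log2 units from control to double KO (adjusted p = 0.436, limma). For *Sipa1l1*, the nearest genes found in the same way were *Map3k9*, at a gap of 388 kb, and *Rgs6*, at 137 kb. Both were at most at 1.9 in the control and double KO groups. In the compound KO libraries *Map3k9* was at 15.7, 3.5 and 2.5 and *Rgs6* at 5.7, 3.0 and 1.0, with the highest value of each in replicate 1. *Radil* and *Mafk* both lie on chromosome 5, at a distance of 2681 kb. Between them, 17 genes matched by current symbol were tested between double KO and control lenses. Of these, 0 were called by limma after adjustment and 1 had an unadjusted p of at most 0.05 with a 1.5-fold change. This interval was looked at after the values were seen.

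**Figure D1:**
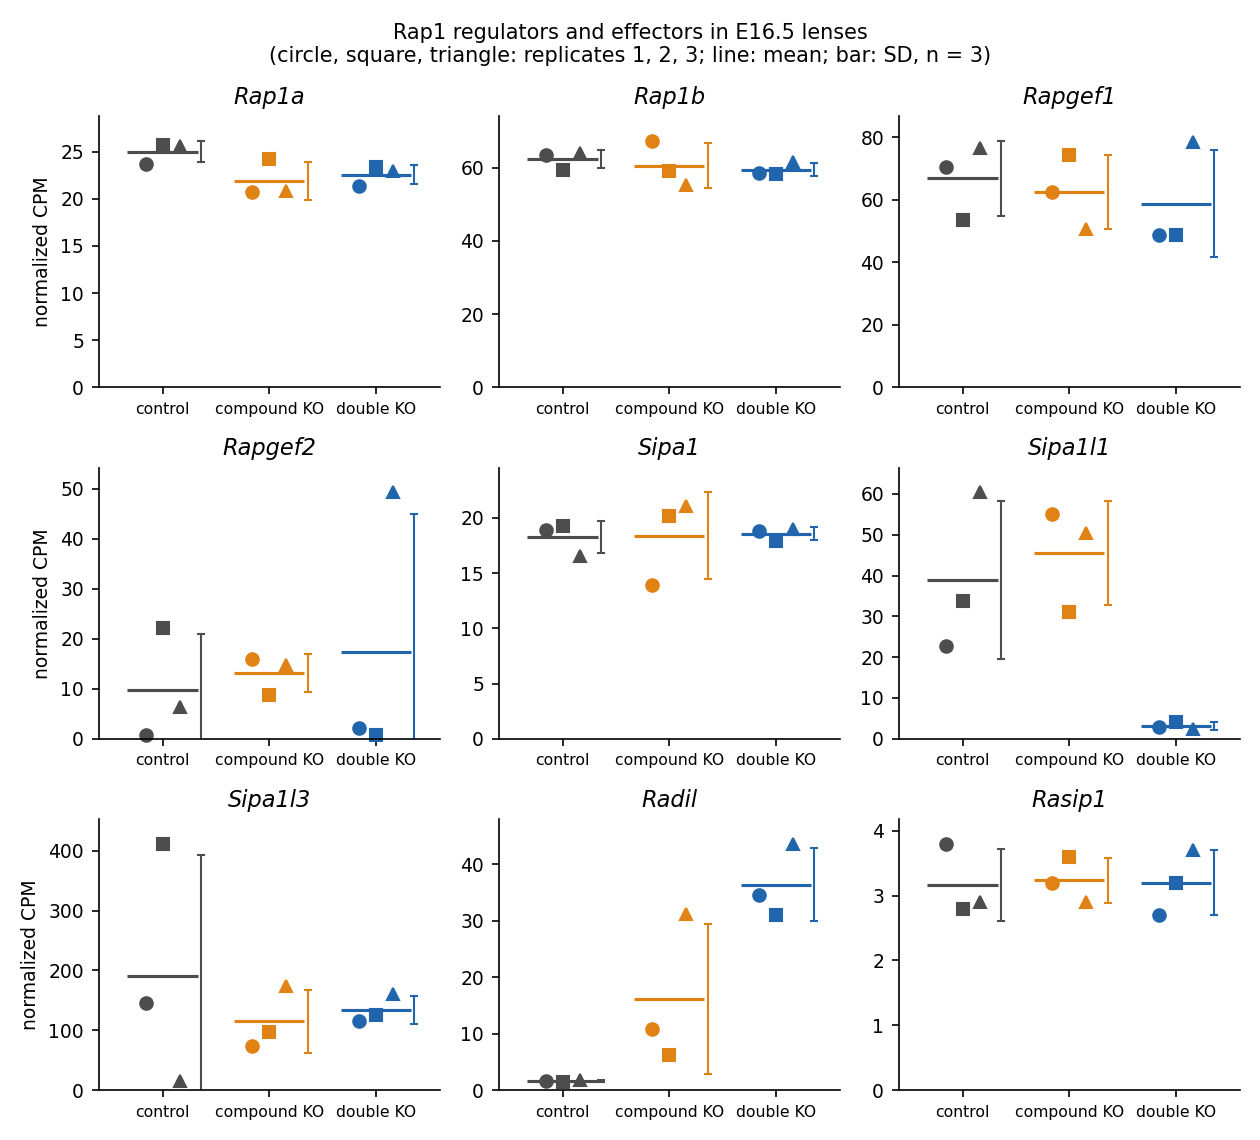
Normalized CPM of the 9 measured genes in each of the 9 libraries, on linear axes from 0. Points are libraries, lines are group means and bars are SD (n = 3, cut off at 0). *Sipa1l1* is at 2.3 to 4.1 in double KO libraries against 22.8 to 60.4 elsewhere, *Radil* is at 1.5 to 1.8 in control and 31.0 to 43.6 in double KO libraries, and *Rapgef2* and *Sipa1l3* spread widely within groups.

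The stretch before the annotated start of each of these genes is shown because both groups of knockouts lack factors that bind DNA at short, known motifs. Each has 250 bases, ends at the base before the outermost annotated start (GRCm39, GENCODE release M39), and is written 5′ to 3′ on the strand of the gene, with matches to a motif in capitals. *Sipa1l1* is shown from chr12:82215844-82216093 (plus strand) and *Radil* from chr5:142536854-142537103 (minus strand).
Sipa1l1: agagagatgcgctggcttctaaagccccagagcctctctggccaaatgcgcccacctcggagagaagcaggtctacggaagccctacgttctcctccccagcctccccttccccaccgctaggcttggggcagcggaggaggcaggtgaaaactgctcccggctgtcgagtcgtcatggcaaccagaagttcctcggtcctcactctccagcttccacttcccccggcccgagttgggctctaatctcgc
Radil: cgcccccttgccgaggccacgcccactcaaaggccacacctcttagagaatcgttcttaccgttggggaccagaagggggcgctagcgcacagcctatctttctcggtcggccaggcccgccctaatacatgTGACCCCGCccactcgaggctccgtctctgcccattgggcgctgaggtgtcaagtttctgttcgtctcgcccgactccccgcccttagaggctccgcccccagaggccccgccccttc
The capitals in *Radil* mark TGACCCCGC, a match to the core of the antioxidant response element (TGACNNNGC), which starts 118 bases before the annotated start site. Searched on both strands were this core, the 6-base half-site of the Maf recognition element (TGCTGA) and the AP-1 site (TGACTCA). The core and the AP-1 site share their first 4 letters. No match to any of them is in the *Sipa1l1* stretch. Over windows of 250 bases before and 50 bases after the start of 21735 genes, 12.4% held the core, 18.0% held the half-site and 4.70% held the AP-1 site. In that window, *Rapgef2* and *Sipa1* each had 1 core and 1 half-site, and *Rap1a*, *Rap1b*, *Rapgef1*, *Sipa1l1*, *Sipa1l3* and *Rasip1* had none. A match is a run of letters only, and binding was not measured.

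Transcripts of the Rap1 proteins themselves spanned narrow ranges. *Rap1a* was at 23.7, 25.7 and 25.6 normalized CPM in control, 20.7, 24.2 and 20.8 in compound KO, and 21.4, 23.4 and 22.9 in double KO libraries. Double KO libraries were all lower than the controls, by a small margin of −0.14 log2 units (standard error 0.07). The compound KO difference was −0.19 (95% interval −0.44 to 0.06). *Rap1b* was at 59.4 to 64.1 in control, 55.3 to 67.3 in compound KO and 58.2 to 61.6 in double KO libraries, and these ranges overlapped. Its log2 fold change was −0.07 (standard error 0.05) in double KO and −0.04 (95% interval −0.28 to 0.19) in compound KO lenses, each against control. The coding sequences of both genes have 552 bases and are identical at 451 of them (81.7%). The longest identical run is 20 bases, shorter than the 101-base reads.

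*Rapgef1* encodes C3G, the GEF that Crk adaptors bring to the membrane. It was at 70.6, 53.4 and 76.5 in control, 62.6, 74.4 and 50.6 in compound KO, and 48.9, 48.9 and 78.6 in double KO libraries. Each group spanned most of the same range, and the log2 fold changes against control were −0.20 (standard error 0.23) in double KO and −0.10 (95% interval −0.58 to 0.39) in compound KO lenses. *Rapgef2*, or PDZ-GEF1, is a GEF found at cell junctions. It was at 0.7, 22.2 and 6.4 in control, 15.9, 8.8 and 14.8 in compound KO, and 2.2, 0.8 and 49.3 in double KO libraries. The lowest and the highest control library differed by 27.9 times and the double KO libraries by 54.9 times, with 0.1 added to each value, so the fitted difference of −0.00 log2 units between those groups had a standard error of 1.55. It was −0.99 without control replicate 1, 0.90 without control replicate 2, 0.94 without double KO replicate 2 and −1.47 without double KO replicate 3, so 1 library set its direction. From control to compound KO it was 1.05 (95% interval −1.28 to 3.39).

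Both other measured GAPs had double KO values inside the control range. *Sipa1*, or SPA-1, is a GAP known from lymphocytes, and it was at 16.6 to 19.3 in control, 13.9 to 21.1 in compound KO and 17.9 to 19.0 in double KO libraries. Its log2 fold change was 0.02 (standard error 0.08) in double KO and −0.01 (95% interval −0.46 to 0.44) in compound KO lenses, each against control. Macrophage and leukocyte markers summed to 14.1 to 17.7, 24.7 to 36.7 and 7.80 to 17.5 in the same groups. *Sipa1l3*, whose human counterpart is a known cataract gene, was at 145.7, 411.7 and 16.1 in control, 73.7, 97.3 and 173.5 in compound KO, and 115.8, 125.2 and 159.9 in double KO libraries. The control libraries held both the highest and the lowest value, 25.4 times apart with 0.1 added, and the knockout libraries lay between them. The fitted difference from control to double KO was 0.40 log2 units (standard error 1.14) while the double KO mean was 0.699 of the control mean, so the log2 fit and the means went in opposite directions. It was −0.88 without control replicate 3 and 1.41 without control replicate 2. From control to compound KO it was 0.10 (95% interval −2.80 to 3.01).

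*Rasip1*, the effector that partners Radil in endothelium, was low at 2.8 to 3.8 in control, 2.9 to 3.6 in compound KO and 2.7 to 3.7 in double KO libraries. Its log2 fold change against control was 0.01 (standard error 0.15) in double KO and 0.03 (95% interval −0.37 to 0.43) in compound KO lenses. The 3 groups overlapped throughout, in the same libraries in which *Radil* ran from 1.5 to 43.6. Endothelial markers were a list of 12 genes with none at 0 throughout. They summed to 82.9 to 94.5 in control, 92.0 to 162 in compound KO and 85.3 to 95.3 in double KO libraries. *Kdr* alone gave 83.2 of the 162 in compound KO replicate 1, and it was at 19.3 and 13.8 in replicates 2 and 3.

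The small differences between compound KO and control lenses depended on the scaling. With libraries scaled by their totals alone, which moved the median of all genes from 0.02 to 0.24 in that comparison, *Rap1a* was at 0.06, *Rap1b* at 0.21, *Rapgef1* at 0.16 and *Sipa1* at 0.23 log2 units, each with the opposite sign.

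**Figure D2:**
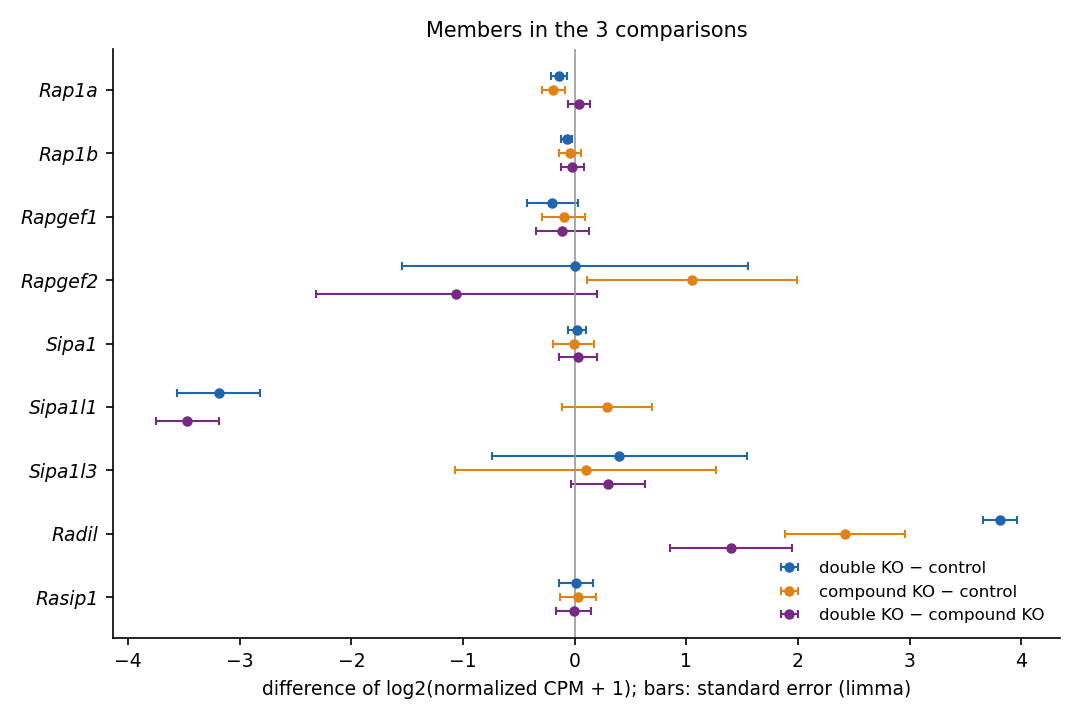
Differences of group means of log2(normalized CPM + 1) for the 9 genes in the 3 comparisons, with limma standard errors as bars. *Sipa1l1* lies near 0 (0.29) from control to compound KO and at −3.19 and −3.47 in the comparisons with double KO, *Radil* lies at 1.40 to 3.81, and the bars of *Rapgef2* and *Sipa1l3* reach over 1 log2 unit.

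For the double KO against control comparison, which made the choice, no count of members past a p-value is given. Of the 14122 genes tested there, 0.361% passed an adjusted p of 0.05 with a 1.5-fold change (limma). At an unadjusted p of 0.05 with a 1.5-fold change, 2.83% passed. Groups did not overlap in 3 of the 9 members, *Sipa1l1* and *Radil* among them, against 15.8% of all genes. Nothing is read from this count. Between compound KO and control lenses, 0 of 9 were called by limma after adjustment (0% of 14348 genes, with 766 at an unadjusted p), 1 passed at an unadjusted p (*Radil*, 5.34% of all genes) and 1 did not overlap (*Radil*, 23.9% of all genes). In double KO against compound KO lenses, 0 of 9 were called after adjustment (0.0139% of 14402 genes), 2 passed at an unadjusted p (*Sipa1l1* and *Radil*, 3.06% of all genes) and 1 did not overlap (*Sipa1l1*, 15.6% of all genes). In that comparison, *Rap1a*, *Rap1b*, *Rapgef1*, *Sipa1* and *Rasip1* differed by −0.11 to 0.04 log2 units, and *Rapgef2* and *Sipa1l3* by −1.06 and 0.30, with intervals that all held 0. It uses the double KO libraries that selected *Sipa1l1* and *Radil*, and nothing is read from their counts there. The 3 comparisons share libraries in pairs, and whether the effects of compound and double KO differed from each other was not tested beyond the direct comparison of these groups.

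Spread between libraries of 1 group was itself uneven in this set. Among the 10391 entries with a symbol and a mean of at least 5, the largest ratio between libraries of the same group had a median of 1.49 and was 5 or more in 10.1%. It was 5 or more in 2 of the 8 set members at that level, *Rapgef2* (54.9) and *Sipa1l3* (25.4), just under 5 in *Radil* (4.89, from compound KO), and between 1.17 (*Rap1a*) and 2.64 (*Sipa1l1*) in the other 5. *Rasip1* was below a mean of 5. In the control group alone, 4.53% of the entries had such a ratio, *Rapgef2* and *Sipa1l3* among them. The source of this spread was not tested.

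**Figure D3:**
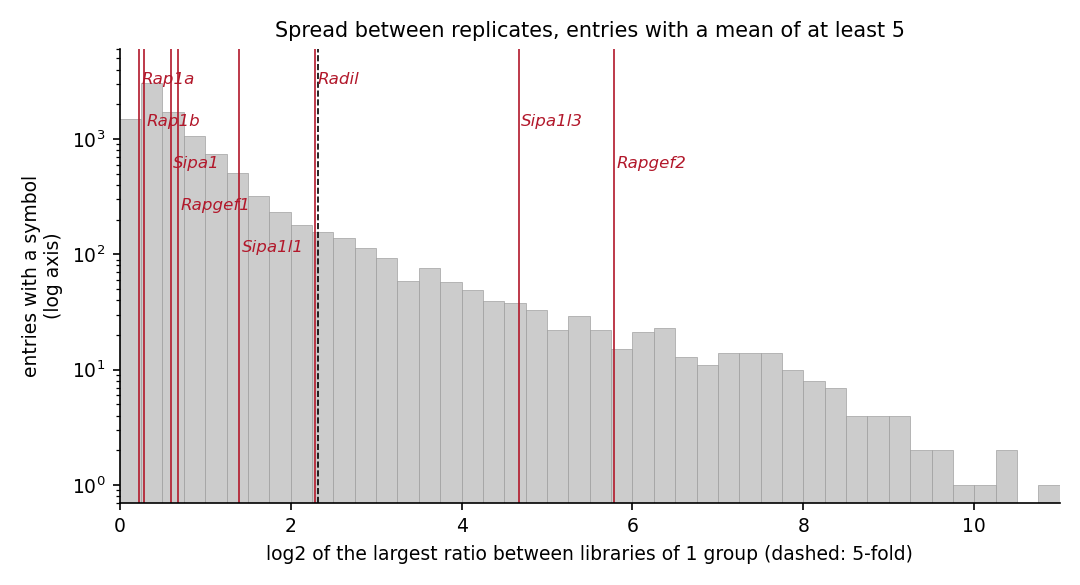
Histogram (grey, log axis of counts) of the largest ratio between libraries of 1 group, on a log2 axis, for 10391 entries with a mean of at least 5, with 0.1 added to each value. Red lines mark the 8 measured genes of the set at that level. *Sipa1l3* and *Rapgef2* lie beyond the dashed 5-fold line and the others lie below it.

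The wider Rap pathway was followed through 53 further genes, of which 49 had an entry and 46 were tested in each comparison. They are 4 Rap proteins or their binding protein, 10 GEFs, 7 GAPs, 9 plexins (semaphorin receptors with a Rap GAP domain), 17 effectors and their partners, and 6 Crk adaptors. After adjustment, limma called 0 of 46 in each comparison. At an unadjusted p of 0.05 with a 1.5-fold change, 0 were higher and 2 lower in double KO than in control lenses, 1 was higher and 3 lower in compound KO than in control lenses, and 1 was higher and 1 lower in double KO than in compound KO lenses. These counts of 2, 4 and 2 of 46 stand beside 2.83%, 5.34% and 3.06% of all genes tested. The count of 4 between compound KO and control lenses was 8 without compound KO replicate 3, 2 without compound KO replicate 1, and 1 without either control replicate 2 or control replicate 3, while the count over all genes went from 766 to 1620, 517, 382 and 440. The median log2 fold change of the 46 was −0.02, 0.03 and −0.04 in these comparisons, beside 0.01, 0.02 and −0.01 over all genes tested.

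Among the effectors, *Rassf5*, which carries active Rap1 to integrins in leukocytes, was at 7.8, 10.5 and 11.9 in control, 4.0, 6.6 and 5.5 in compound KO, and 5.7, 3.8 and 6.7 in double KO libraries. All 6 knockout libraries lay below the controls, with a log2 fold change of −0.80 in both comparisons, an adjusted p of 0.351 in double KO and of 0.481 in compound KO lenses (limma), and the same control libraries in each. *Arhgap29*, whose product works with Rasip1 and Radil, was at 9.0, 5.9 and 5.0 in control, 1.7, 4.0 and 0.0 in compound KO, and 8.8, 2.4 and 1.1 in double KO libraries. Its values were lower than every control in the compound KO group (log2 fold change −1.65, adjusted p = 0.481, limma) and overlapped the controls in the double KO group.

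Plexins and adaptors gave the rest. *Plxna4* was at 62.5 to 66.9 in control, 27.9 to 48.8 in compound KO and 43.6 to 46.9 in double KO libraries, below every control in both knockouts. Its log2 fold change of −0.49 (standard error 0.05, limma adjusted p = 0.0412) in double KO lenses did not reach 1.5-fold, and it was −0.70 (adjusted p = 0.481) in compound KO lenses. *Plxnc1* was at 5.7, 1.1 and 3.9 in control, 41.2, 10.5 and 7.5 in compound KO, and 7.5, 2.4 and 3.0 in double KO libraries. It was highest in the compound KO library that also had the highest mesenchyme, muscle and retina markers, and the part of those cells was not tested. *Crk*, which docks C3G, was at 147.4, 159.7 and 153.5 in control, 129.8, 140.1 and 138.7 in compound KO, and 141.3, 40.4 and 55.2 in double KO libraries. Double KO replicate 1 was near the compound KO level and the other double KO libraries were far below it, with a log2 fold change of −1.16 against control (adjusted p = 0.482, limma). Within a group, 6 of the 37 pathway genes with a mean of at least 5 had a library ratio of 5 or more (16.2%), among them *Plxnb1*, *Plxnb2*, *Krit1*, *Afdn* and *Plxnc1*.

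**Figure D4:**
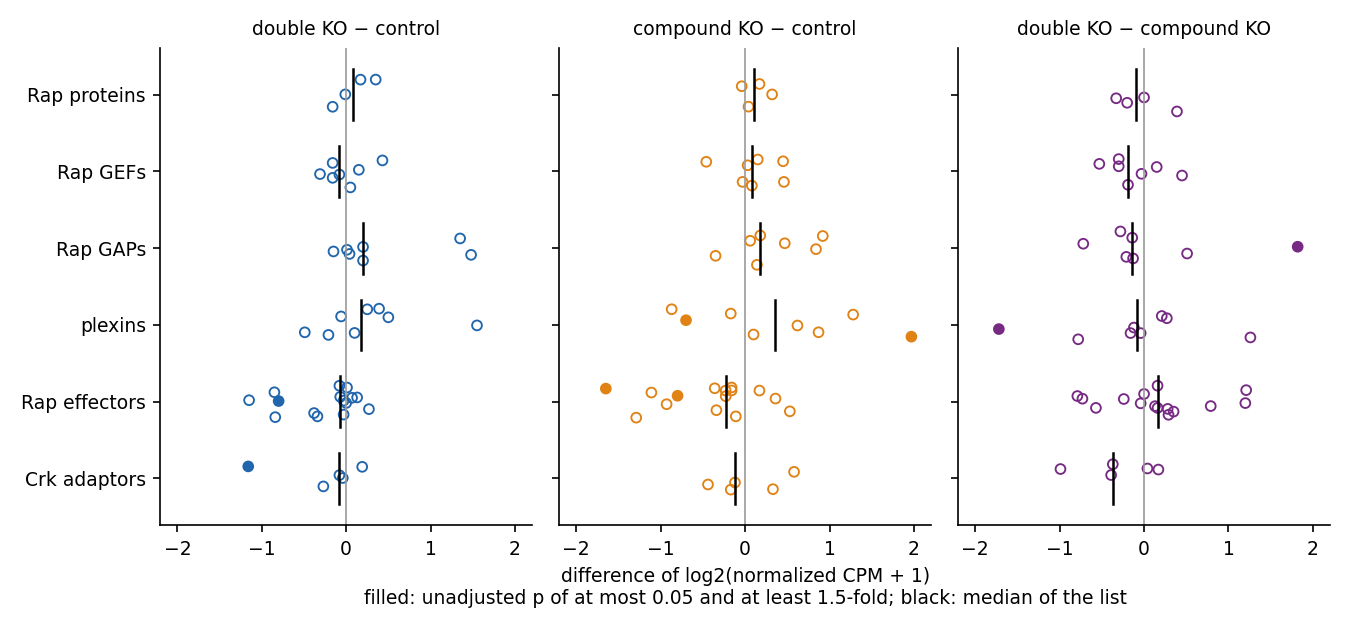
Differences of group means of log2(normalized CPM + 1) for the 46 tested Rap pathway genes outside the set, by list, in the 3 comparisons. Each circle is a gene, filled at an unadjusted p of at most 0.05 with a 1.5-fold change, and black lines are list medians. Few circles are filled (2, 4 and 2), and the medians over all 46 are −0.02, 0.03 and −0.04.

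The entries most like *Sipa1l1* and *Radil* over the 9 libraries were ranked by Pearson's r of log2(normalized CPM + 1) among 10390 entries with a mean of at least 5. The points share libraries, and the ranking rests on the same values that selected both genes, so no p is given. For *Radil* the closest were *Ehbp1* (r = 0.984) and *Mknk2* (0.972), followed by *Atp5sl* (0.971), *Gtpbp6* (0.951) and *Cdh4* (0.950). *Ehbp1*, which links endocytic vesicles to actin, was at 1.3 to 2.5 in control, at 5.5, 3.4 and 15.3 in compound KO and at 15.7 to 17.8 in double KO libraries. *Mknk2*, a kinase of the translation factor eIF4E, was at 11.5 to 14.1 in control, at 95.8, 30.3 and 139.9 in compound KO and at 111.5 to 136.0 in double KO libraries. In *Radil*, *Ehbp1* and *Mknk2* alike, compound KO replicate 3 was the highest and replicate 2 the lowest of the compound KO libraries. The other 3 entries covered narrow ranges, such as 10.2 to 12.6 for *Atp5sl*.

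For *Sipa1l1* the closest were *Acvr2a* (r = 0.905), an activin receptor, *Aatk* (0.890), *Bicd1* (0.886), *2310009B15Rik* (0.876) and *Srek1* (0.875). *Srek1*, a splicing regulator, was at 19.5 to 27.0 in control, 13.8 to 20.9 in compound KO and 6.4 to 11.3 in double KO libraries. *Acvr2a* was at 27.3 to 28.7, 27.1 to 31.8 and 23.7 to 24.7, a far narrower range than that of *Sipa1l1*.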

How the data were processed

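RNA-seq was compared in 9 libraries of mouse lenses, grouped by genotype as labelled. The authors made strand-specific paired-end libraries with reads of 101 bases, used HISAT2 to align them to mm39 and StringTie to count per transcript, and removed low CPM entries in edgeR. The submitters' processing notes also name Trimmomatic and Cufflinks. Tool versions are not given in the sources used here. The deposited values are a normalized signal, CPM scaled by 1 composition factor per library, whose totals ran from 728036 to 1131184. Depth is unknown. Entries without a symbol held 25.0% to 35.5% of a library's total and were not tested. Whether they hold reads of a member, whose entry would then miss part of its RNA, was not tested either.

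A count model had been planned in case of raw counts, and limma, planned for other values, was used. limma 3.58.1 (R 4.3.3) was run with an intensity trend on log2(value + 1), pair by pair, keeping entries at 1 or more in 2 or more of the 6 libraries compared. P-values are two-sided, with Benjamini-Hochberg adjustment across the entries tested. The members and the lists of pathway genes and markers were chosen with earlier results of these data known. Named in the text are all members, pathway genes that were called after adjustment, or that had an unadjusted p up to 0.05, a 1.5-fold change and no overlap of the groups, in any comparison, and the 5 entries most like *Sipa1l1* and *Radil*. The pathway genes of wide spread and the neighbours of members were named after their values were seen, and 1 pathway gene is counted but not reported here by name. Sequences were read from GRCm39 with GENCODE release M39. Python 3.11.15, pandas 2.3.3, numpy 2.4.6 and matplotlib 3.10.9 were used. Same-numbered libraries were not treated as pairs. Alternatives were a pseudocount of 0.1, other filters and scalings, a joint fit of the 9 libraries, a replicate block, summing of entries with 1 symbol, no fold threshold, and each library left out in turn.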

Additional observations from a re-analysis of the deposited data

How the results depend on the processing

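Across the alternatives, the log2 fold change of *Sipa1l1* stayed between −3.52 and −2.82 from control to double KO and between −3.81 and −3.32 from compound KO to double KO, and that of *Radil* between 3.68 and 4.38 from control to double KO between 1.82 and 2.91 from control to compound KO and between 0.92 and 2.00 from compound KO to double KO. Scaling by library total moved the median of all genes from 0.02 to 0.24 in compound KO against control and from −0.01 to −0.17 in double KO against compound KO. With it, small differences changed sign: *Rap1a* 0.06, *Rap1b* 0.21, *Rapgef1* 0.16 and *Sipa1* 0.23 in compound KO against control, and *Rap1a* −0.14 and *Sipa1* −0.14 in double KO against compound KO, where *Rasip1* was 0.00 with upper quartile scaling. With a library left out, signs also changed in compound KO against control for *Rap1b* (−0.12 to 0.02), *Rapgef1* (−0.25 to 0.05), *Rasip1* (−0.03 to 0.13), *Sipa1* (−0.11 to 0.17), *Sipa1l1* (−0.03 to 0.65) and *Sipa1l3* (−1.18 to 1.12), and in double KO against compound KO for *Rap1b* (−0.08 to 0.06), *Rapgef1* (−0.33 to 0.03), *Rasip1* (−0.10 to 0.07) and *Sipa1* (−0.15 to 0.14). In double KO against control the same held for *Rapgef2* (−1.47 to 0.94), *Sipa1l3* (−0.88 to 1.41), *Rasip1* (−0.07 to 0.12) and *Sipa1* (−0.04 to 0.06).

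Counts at an unadjusted p moved as follows. With scaling by library total, 1 pathway gene passed between double KO and control, beside 418 of 13942 genes in all. Between compound KO and control 2 passed, beside 839 of 14254. Between double and compound KO 1 member passed, beside 399 of 14345, on the double KO libraries that selected *Sipa1l1* and *Radil*. Without a fold threshold, 6 pathway genes passed between double KO and control, and 1 passed after adjustment. The share of all genes without that threshold was not counted, so nothing is read from these counts. With 1 fit of all 9 libraries, 1 member passed after adjustment between double and compound KO, beside 5 of 14402 genes in all. This was *Sipa1l1*, on the double KO libraries that selected it, and it passed in no other of its 14 alternatives. With a library left out, pathway genes at an unadjusted p numbered 1 to 3 in double KO against control, 1 to 8 in compound KO against control (8 without compound KO replicate 3) and 0 to 3 in double KO against compound KO. Members then numbered 1 to 2 of 9 in compound KO against control. In double KO against compound KO, which uses the libraries that selected *Sipa1l1* and *Radil*, they numbered 1 to 3 of 9. Over all genes, 412 to 465 of 13964 to 14040 passed in double KO against control. In compound KO against control, 382 to 1620 of 14042 to 14261 passed. In double KO against compound KO, 253 to 1142 of 14112 to 14318 passed. After adjustment in double KO against control, 0 to 1 pathway genes passed (1 without control replicate 1), beside 22 to 47 of all genes. The cause was not tested. Libraries with the same number correlated by −0.106 to 0.216 once group means were removed, so numbers were not read as pairs. With the replicate block, 1 pathway gene passed at an unadjusted p in double KO against control, beside 402 of 14122 genes. In double KO against compound KO it was 1 pathway gene, beside 744 of 14402. With 3 libraries per group and unknown depth, small changes of low genes such as *Rasip1* were not detectable.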
